A study of Mus musculus with 12 samples.

Results

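The surface markers described here are 10 genes whose proteins sit on the stromal progenitors of adipose tissue and are used to sort or name those cells. They are Cd248, Cd34, Pdgfra, Pdgfrb, Dpp4, Pi16, Ly6a, Thy1, Procr and Cd55. They were chosen by name, as all lines of the transcript table that carry one of these symbols, and the reads of their 22 transcripts were summed to 10 genes of the 24541 symbols in the table. All 10 passed the filter on low counts that left 15068 genes for testing.

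The samples were RNA-seq libraries of mouse primary adipocytes from epididymal fat, in 4 groups of 3 libraries, all from strain C57BL/6N. The young groups were 3 months old and the old groups 18 months old. At each age, the group labelled WT carried floxed Crtc2 alleles (Crtc2 f/f), and the group labelled AKO was the adipocyte-specific Crtc2 knockout. The WT label thus covers floxed alleles, and the Cre driver and the deleted exons are not given in the sources used here. Whether libraries stand for single mice, pools or repeat preparations is not labelled, so p-values measure the spread between libraries only. Crtc2 is a coactivator that CREB recruits to cAMP-responsive genes.

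Fat tissue holds a stromal vascular fraction beside its adipocytes, and within it lie fibroblast-like progenitors that can divide and form new adipocytes. PDGF receptor alpha and the sialomucin CD34 mark most of these cells in mice, and Sca-1, the product of Ly6a, is used with them in sorting. Cells with DPP4, PI16 and CD55 lie in the interstitium around the fat lobules and are described as an early progenitor state, whereas PDGF receptor beta is also carried by pericytes and other mural cells. Several of the 10 proteins are shared with other cells: endothelium carries CD34, Sca-1 and the protein C receptor, and mesothelium carries DPP4.

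Promoter sequence from RefSeq (GRCm38.p6) was at hand for 6 of the 10 members, as the 250 bases before the gene's start. CREB binds the cAMP response element, whose full form is TGACGTCA and whose core is TGACG, so the members were searched for these letters on both strands. The full element was in 0 of the 6 promoters and in 1.55% of 32851 mouse promoters of the same length. The core, which the full element also contains, was in 3 of the 6, against 17.8% of all promoters. Those 3 are printed with the core (TGACG, or CGTCA where it lies on the other strand) in capitals, beside Cd34, which holds neither.
Pdgfra: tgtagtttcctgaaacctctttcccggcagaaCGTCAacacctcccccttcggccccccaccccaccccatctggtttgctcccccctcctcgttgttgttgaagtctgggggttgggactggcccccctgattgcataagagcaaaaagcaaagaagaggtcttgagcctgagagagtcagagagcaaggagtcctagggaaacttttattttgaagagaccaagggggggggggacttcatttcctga
Procr: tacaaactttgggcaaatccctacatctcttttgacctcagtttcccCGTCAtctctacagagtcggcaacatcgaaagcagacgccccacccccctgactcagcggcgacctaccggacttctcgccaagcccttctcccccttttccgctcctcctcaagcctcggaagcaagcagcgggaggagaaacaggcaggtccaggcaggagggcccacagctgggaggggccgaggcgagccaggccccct
Cd55: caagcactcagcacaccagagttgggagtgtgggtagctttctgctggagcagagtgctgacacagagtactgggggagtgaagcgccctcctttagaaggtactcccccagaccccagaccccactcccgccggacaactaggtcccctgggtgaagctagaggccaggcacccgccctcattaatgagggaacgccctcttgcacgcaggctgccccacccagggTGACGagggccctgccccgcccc
Cd34: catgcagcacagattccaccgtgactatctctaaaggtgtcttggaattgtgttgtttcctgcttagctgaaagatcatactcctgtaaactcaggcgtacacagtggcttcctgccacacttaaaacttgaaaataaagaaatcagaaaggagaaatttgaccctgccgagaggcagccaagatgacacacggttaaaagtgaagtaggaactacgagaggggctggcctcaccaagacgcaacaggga
The Pdgfra stretch is chr5:75152001-75152250 on the plus strand, with the core at -218 to -214 from the start. The Procr stretch is chr2:155750967-155751216 on the plus strand, with the core at -203 to -199. The Cd55 stretch is chr1:130462745-130462994 on the minus strand, with the core at -23 to -19, and the Cd34 stretch is chr1:194938571-194938820 on the plus strand. These matches are letters only, and no binding was measured in these samples.

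Library totals were 45935795 to 61125366 estimated reads. Levels are given as CPM, the usual counts scaled to library size, with TMM factors, with SD over 3 libraries, and levels compared between genes as the deposited FPKM, which is also divided by transcript length. Differences are log2 fold changes with SE. The label check went against its direction: Crtc2 stood at 66.9 ± 12.8 CPM in the young WT-labelled libraries and 248 ± 73.6 in the young AKO-labelled ones, and at 49.0 ± 3.29 and 155 ± 5.10 in the old ones (SD, n = 3). Crtc2 was thus higher by a log2 fold change of 1.78 ± 0.15 (SE) over both ages in the libraries labelled AKO (edgeR quasi-likelihood test, adjusted p = 0.00044). Reads summed over a gene cannot show a deletion of unnamed exons, so every genotype direction given here is a direction between labels. Adipocyte genes dominated all libraries, with 12 markers summing to 34626 to 75648 CPM, while the 10 progenitor markers summed to 97.5 to 482 CPM. Old WT replicate 3 and young WT replicate 1 stood apart from their groups on the first principal components of all genes, and counts are also given without both.

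**Figure D1:**
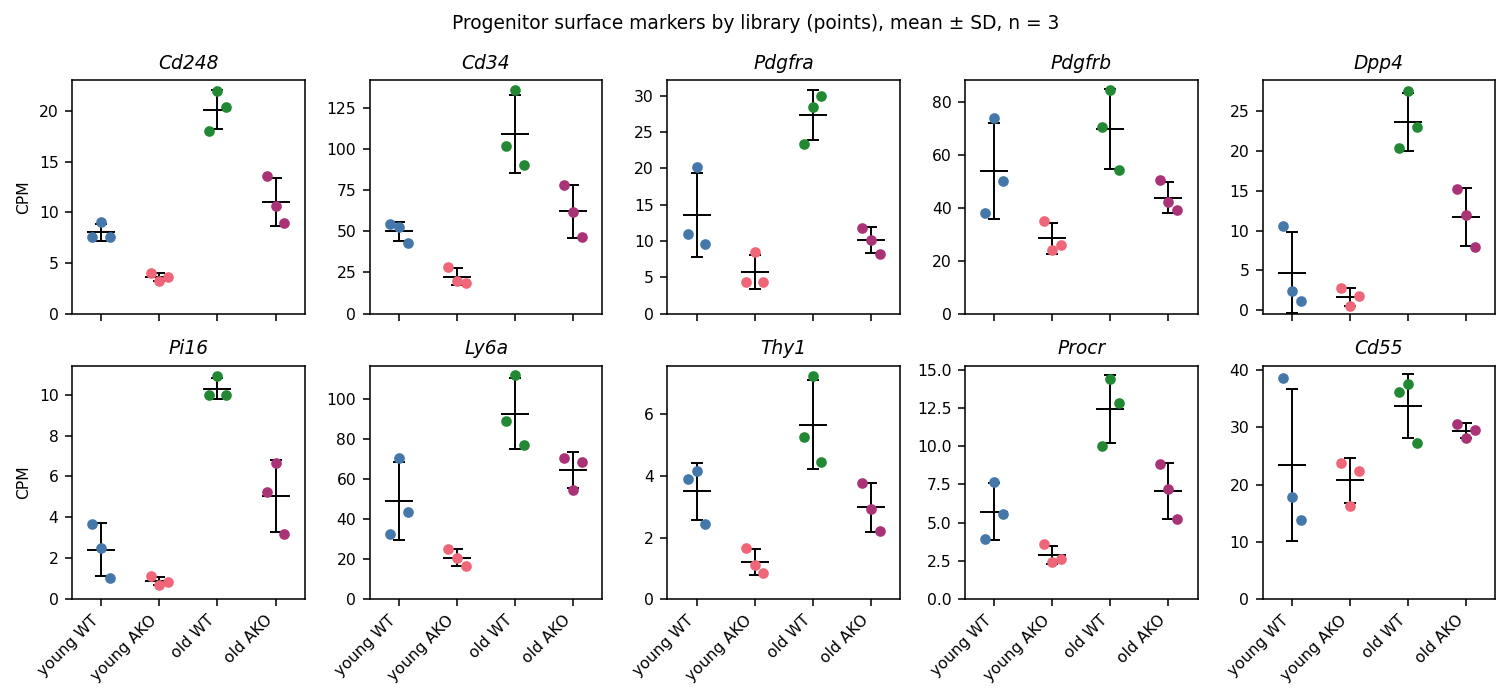
Level of each of the 10 members in CPM (linear axis) in the 12 libraries, 1 panel per gene, with points for libraries and a bar with whiskers for the group mean and SD (n = 3). Cd248 runs from 3.22 CPM in young AKO-labelled to 22 CPM in old WT-labelled libraries, with the widest spread in the old AKO-labelled group (SD 2.36 CPM). Cd55 has young WT replicate 1 at 38.6 CPM, the other 5 young libraries between 13.9 and 23.7 CPM and the old ones between 27.3 and 37.6 CPM.

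Across both ages, 8 of the 10 markers were lower in the libraries labelled AKO than in those labelled WT: Cd248, Cd34, Pdgfra, Pdgfrb, Pi16, Ly6a, Thy1 and Procr. Their log2 fold changes in the mean over ages ran from -0.80 to -1.34. Dpp4 and Cd55 did not pass. Of all tested genes, 10.3% were called lower in this comparison, at an edgeR quasi-likelihood adjusted p under 0.05. The median over the 10 members was -1.0, beside 0.01 over all tested genes. In bulk libraries of this kind, fewer cells of a type and less RNA per cell cannot be told apart.

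With age, 7 of 10 members rose in the WT-labelled libraries and 7 of 10 in the AKO-labelled ones, against 14.2% and 10.4% of all tested genes called higher. The 2 changes ran in opposite directions, and in no member did the old AKO-labelled group separate from the young WT-labelled group: the ranges of the 3 libraries overlapped for all 10. For Dpp4, Pi16 and Cd55 the overlap rested on young WT replicate 1: without it the young WT-labelled values reached 2.43, 2.52 and 17.9 CPM, below the lowest old AKO-labelled values of 7.96, 3.18 and 28.1 CPM, and the groups of these 3 of 10 members were then apart. Over all genes, 11.9% had the old AKO-labelled libraries all above the young WT-labelled ones and 10.7% all below. That pair was not tested, since it differs in both age and label, and overlap does not show equal levels.

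Cd248, or endosialin, is a transmembrane glycoprotein of fibroblasts and pericytes (chr19:5068078-5070639, mm10). In the young libraries it stood at 7.56, 9.04 and 7.58 CPM under the WT label and at 3.98, 3.22 and 3.57 under the AKO label. In the old libraries the values were 18.1, 22 and 20.4 under WT and 13.6, 10.6 and 8.94 under AKO. The genotype groups did not overlap at either age and the age groups did not overlap under either label, but the lowest old AKO-labelled library, at 8.94, lay within the young WT-labelled range. Cd248 fell under the AKO label by 1.17 ± 0.17 on the log2 scale in young (adjusted p = 0.0230) and by 0.87 ± 0.16 in old libraries (adjusted p = 0.0189, edgeR quasi-likelihood test). It rose with age by 1.32 ± 0.16 under WT (adjusted p = 0.00161) and by 1.62 ± 0.17 under AKO (adjusted p = 0.000641). Among the members it was the only gene called in all 4 pairwise comparisons by this test. The young call was lost without young WT replicate 2, young AKO replicate 3 or old AKO replicate 2 (adjusted p from 0.0502 to 0.139). The old call was lost without old AKO replicate 1, 2 or 3 (adjusted p = 0.0613, 0.0859 and 0.120).

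Cd34 encodes a sialomucin of progenitors, haematopoietic stem cells and endothelium (chr1:194938821-194961292). Young values were 54.2, 52.7 and 43.1 CPM under WT and 28.4, 20.1 and 18.7 under AKO. Old values were 102, 136 and 90.3 under WT and 78.1, 62.1 and 46.3 under AKO. As with Cd248, the genotype groups did not overlap at either age and the age groups did not overlap under either label. The young difference of -1.16 ± 0.23 passed (adjusted p = 0.0434, edgeR), and the old difference of -0.82 ± 0.22 did not (adjusted p = 0.0568). The young call was lost without young WT replicate 2, any young AKO-labelled library, old WT replicate 1 or old AKO replicate 2 (adjusted p from 0.0522 to 0.182). The rises with age were 1.13 ± 0.22 under WT (adjusted p = 0.00781) and 1.47 ± 0.23 under AKO (adjusted p = 0.00421).

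Pdgfra and Pdgfrb are receptor tyrosine kinases that bind PDGF dimers and drive proliferation and migration of mesenchymal cells. Pdgfra (chr5:75152251-75198206) stood at 10.9, 20.2 and 9.63 CPM in young WT-labelled libraries and at 4.40, 8.42 and 4.39 in young AKO-labelled ones. It stood at 23.4, 28.5 and 30.0 in old WT-labelled libraries and at 11.8, 10.2 and 8.23 in old AKO-labelled ones. The second replicate was the highest of both young groups, and the genotype groups did not overlap at either age. Pdgfra fell under the AKO label in old libraries, by 1.44 ± 0.32 on the log2 scale (adjusted p = 0.0259), while the young difference was -1.24 ± 0.32 (adjusted p = 0.0762). Its rise with age passed under WT, at 1.01 ± 0.31 (adjusted p = 0.0401), and missed the threshold under AKO, at 0.81 ± 0.32 (adjusted p = 0.0938). The old genotype call was lost without old WT replicate 2 or 3 or any old AKO-labelled library (adjusted p from 0.0516 to 0.136). The age call under WT was lost without young WT replicate 1 or 3 or any old library (adjusted p from 0.0516 to 0.137).

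Pdgfrb (chr18:61045150-61085067) was the more abundant receptor per length, at 9.67 ± 3.42 FPKM in young WT-labelled libraries against 2.12 ± 1.01 for Pdgfra (SD, n = 3). Its young values were 37.9, 73.8 and 50.3 CPM under WT and 35.2, 24.2 and 25.8 under AKO, and the lowest WT value lay just above the highest AKO value. The old values were 70.6, 84.7 and 54.2 under WT and 50.4, 42.1 and 39.1 under AKO. None of its 4 pairwise comparisons passed: the genotype differences were -0.93 ± 0.25 in young and -0.67 ± 0.25 in old, and the age differences were 0.37 ± 0.24 under WT and 0.63 ± 0.25 under AKO. The mean of the genotype differences over both ages, -0.80 ± 0.17, did pass (adjusted p = 0.0147).

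The ligands of these receptors were taken as a list of 4 genes. Pdgfb, the B chain that endothelium releases to recruit pericytes, was lower under the AKO label over both ages, at -0.65 ± 0.13 on the log2 scale (adjusted p = 0.0118), from 23.0 ± 3.15 to 15.2 ± 3.98 CPM in young libraries and from 49.4 ± 5.15 to 30.4 ± 5.17 in old ones. It rose with age under both labels, by 1.10 ± 0.19 and 1.01 ± 0.19. Pdgfa and Pdgfc passed in none of the comparisons, and Pdgfd passed in the age comparison under AKO, at 0.95 ± 0.28. The median over the 4 ligands in the mean genotype comparison was -0.15.

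Dpp4 is a membrane serine peptidase that trims incretins and chemokines and binds adenosine deaminase (chr2:62330073-62412231). Young WT-labelled values were 10.6, 2.43 and 1.19 CPM, and young AKO-labelled values were 2.77, 0.540 and 1.82. Old values were 20.3, 27.4 and 23.0 under WT and 15.2, 12 and 7.96 under AKO. Young WT replicate 1 stood above the other 5 young libraries, and the old groups did not overlap. Dpp4 rose with age by 2.32 ± 0.71 on the log2 scale under WT (adjusted p = 0.0387) and by 2.78 ± 0.74 under AKO (adjusted p = 0.0282), the largest rises of the 10 members. Its genotype differences, -1.47 ± 0.72 in young and -1.01 ± 0.68 in old, did not pass (adjusted p = 0.293 and 0.417). Without young WT replicate 1 the young difference was -0.09 (adjusted p = 0.952) and the rise under WT was 3.70 (adjusted p = 0.00282). The call of that rise was lost without young WT replicate 2 or 3, young AKO replicate 3 or any old library (adjusted p from 0.0521 to 0.113). Under AKO it was lost without replicate 2 or 3 of the young or replicate 1 or 2 of the old libraries (adjusted p from 0.0651 to 0.0924).

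The same library was the richest young library in mesothelial markers. The 11 mesothelial genes on the list summed to 86.9 CPM in young WT replicate 1, against 22.8 and 30.0 in the other WT-labelled young libraries and 9.24 to 28.9 in the young AKO-labelled ones. In old libraries they summed to 97.7 to 178 CPM under WT and 53.8 to 125 under AKO. Mesothelial genes also led the genes whose profile over the 12 libraries was most like that of Dpp4. Likeness was the root mean square difference of log2 CPM after centring each gene, over 12647 genes with a mean of at least 1 CPM. The nearest were Gpm6a at 0.34, Nkain4 at 0.42 and Upk3b at 0.44, and 2 of them, Gpm6a and Upk3b, were on the mesothelial list. Gpm6a passed in neither genotype comparison. The part of mesothelial cells in the Dpp4 values was not tested.

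Pi16 encodes a peptidase inhibitor of the CAP family that marks fibroblasts of the interstitium (chr17:29318882-29328902). It was scarce in young libraries, at 3.66, 2.52 and 1.06 CPM under WT and 1.12, 0.700 and 0.864 under AKO. It reached 10, 10.9 and 10 in old WT-labelled libraries and 5.22, 6.68 and 3.18 in old AKO-labelled ones. Young groups overlapped, and old groups did not. The rise with age was 2.1 ± 0.40 on the log2 scale under WT (adjusted p = 0.00694) and 2.49 ± 0.42 under AKO (adjusted p = 0.00525), second in size to Dpp4 among the members. Neither genotype difference passed by itself, at -1.43 ± 0.41 in young and -1.04 ± 0.38 in old, and their mean of -1.23 ± 0.28 did (adjusted p = 0.0178). The genes nearest to it in profile were Gabra3 at 0.27, Igfbp6 at 0.28 and Mfap5 at 0.29.

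Other genes of the interstitial progenitor state were followed as a list. Of 8 tested genes on that list, 4 were higher with age under WT and 5 under AKO, against 14.2% and 10.4% of all genes. In the mean genotype comparison 7 of the 8 lay below 0, with a median of -0.61. Only 1 of the 8 was called lower under the AKO label over both ages, against 10.3% of all genes. That gene was Smpd3, a neutral sphingomyelinase, at 3.40 ± 1.31 and 1.29 ± 0.41 CPM in young and 16.0 ± 7.32 and 5.92 ± 1.74 CPM in old libraries, with a mean genotype difference of -1.42 ± 0.28 (adjusted p = 0.0105). Smpd3 rose with age by 2.24 ± 0.39 under WT, and Anxa3, an annexin, by 1.43 ± 0.29. The Anxa3 mean was higher in old libraries under AKO too, at 69.7 ± 8.37 against 18.6 ± 5.19 CPM. Creb5, a transcription factor, rose by 2.86 ± 0.48 under AKO, from 0.778 ± 0.608 to 5.60 ± 0.478 CPM. Under WT the Creb5 means were 2.41 ± 1.01 in young and 6.32 ± 0.705 CPM in old libraries.

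Markers of the more committed preadipocyte moved as follows. Of 8 genes, 4 were lower under the AKO label over both ages, against 10.3% of all genes. Among the 4 were Vcam1, an adhesion molecule for leukocytes, at -1.55 ± 0.24 (edgeR, adjusted p = 0.00568), and Icam1, another such molecule, at -1.06 ± 0.24 (adjusted p = 0.0169). Mgp, a matrix protein that inhibits calcification, was also lower, at -1.04 ± 0.24 (adjusted p = 0.0191). In that mean, 6 of the 8 genes lay below 0, with a median of -0.87 and a highest value of 0.38. The summed levels of the 8 genes overlapped between the labels, at 5135 to 6990 (WT) and 5367 to 7322 CPM (AKO) in young libraries. In old libraries they were 4989 to 6102 and 5676 to 6856 CPM. Apoe made up most of these sums, with a mean of 5208 ± 933 CPM in young WT-labelled libraries. The mean over the 8 genes of log2 CPM centred per gene did not overlap between the labels. In young libraries this mean was -0.229 to 0.0984 (WT) and -1.1 to -0.468 (AKO). In old libraries it was 0.569 to 0.857 and -0.192 to 0.349. Vcam1 stood at 9.02 ± 3.84 against 2.91 ± 0.98 CPM in young and 22.9 ± 6.52 against 8.25 ± 1.25 in old libraries. With age, 4 of the 8 rose under WT and 3 under AKO, against 14.2% and 10.4% of all genes. Of the 4 genes listed for the F3-positive regulatory population, Cygb and Fmo2 were lower under the AKO label over both ages, at -0.85 ± 0.17 and -0.84 ± 0.16. F3, tissue factor, was the exception with age: it fell under WT by 1.0 ± 0.22 (adjusted p = 0.0113), from 130.0 ± 38.4 to 65.1 ± 5.30 CPM.

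**Figure D2:**
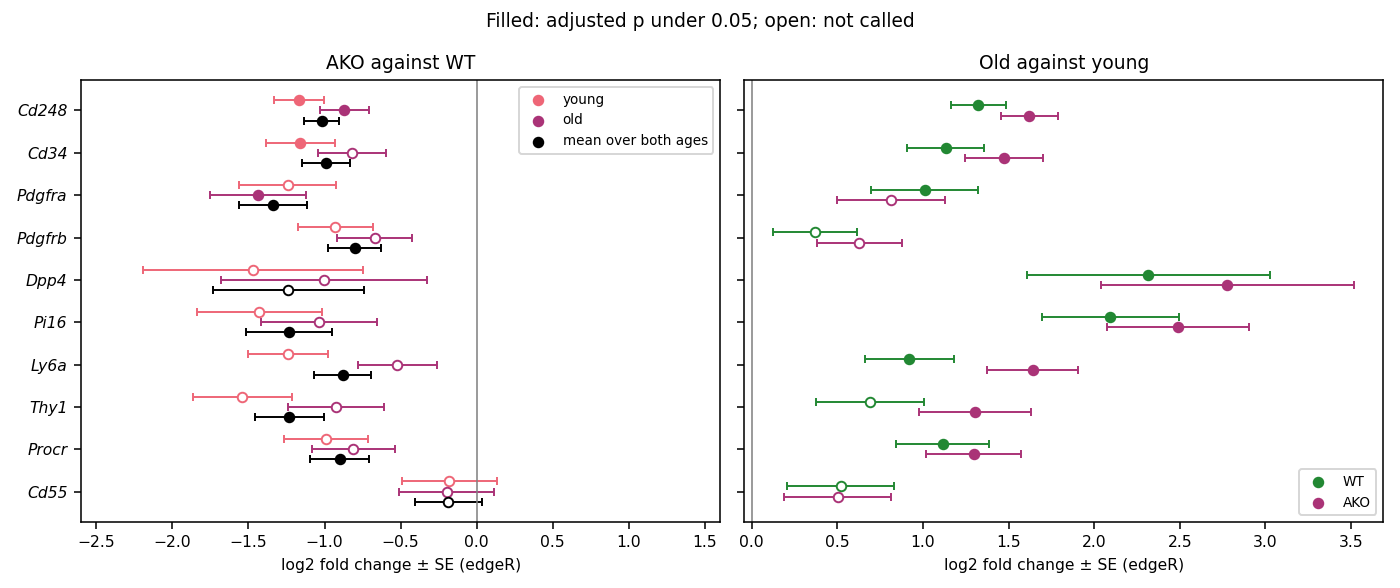
Log2 fold change with SE of each member in the genotype comparisons at both ages and in the age comparisons under both labels, with filled points for an adjusted p under 0.05 (edgeR quasi-likelihood test). All 10 genotype points lie below 0 at both ages and all 10 age points above 0 under both labels, with Cd55 nearest to 0 among the genotype points.

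Ly6a encodes Sca-1, a GPI-anchored protein of the Ly6 family (chr15:74994877-74998031). It was the most abundant member per length in all 4 groups, from 19.4 ± 4.22 FPKM in young AKO-labelled to 103 ± 19.3 in old WT-labelled libraries. Young values were 32.8, 70.5 and 43.8 CPM under WT and 25.1, 20.5 and 16.6 under AKO, and old values were 89.1, 112 and 77.0 under WT and 70.9, 54.6 and 68.5 under AKO. The groups did not overlap at either age, although old WT replicate 3 and old AKO replicate 1 lay close together. Ly6a rose with age by 0.92 ± 0.26 under WT (adjusted p = 0.0295) and by 1.64 ± 0.27 under AKO (adjusted p = 0.00480). The call under WT was lost without young WT replicate 1 or 3 or old WT replicate 1 or 2 (adjusted p from 0.0564 to 0.101). Its genotype difference was -1.24 ± 0.26 in young (adjusted p = 0.0541) and -0.52 ± 0.26 in old libraries (adjusted p = 0.270). The difference between those 2 values, 0.72 ± 0.37, was the largest among the members and did not pass (adjusted p = 0.568).

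A share of the Ly6a reads cannot be placed with certainty. Of the 50-base words in its annotated transcripts, 19.0% also occurred in other genes, among them Ly6c1 and Ly6i. Ly6c1, a Ly6 gene of endothelium and monocytes, was lower under the AKO label over both ages, at -0.73 ± 0.17 (adjusted p = 0.0191), and stood at 78.4 ± 22.7 and 38.4 ± 6.33 CPM in young libraries. Ly6i was not tested and had at most 15 reads in a library.

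Thy1, a GPI-anchored glycoprotein of T cells, neurons and fibroblasts (chr9:44043384-44048579), was scarce. Young values were 3.90, 4.16 and 2.45 CPM under WT and 1.67, 1.10 and 0.845 under AKO, and old values were 5.28, 7.25 and 4.44 under WT and 3.78, 2.93 and 2.22 under AKO. The genotype groups were apart at both ages, and the age groups were apart under both labels. In the fit, the rise under AKO passed, at 1.31 ± 0.33 (adjusted p = 0.0232), and the mean genotype difference passed, at -1.23 ± 0.23 (adjusted p = 0.00909). The young genotype difference of -1.54 ± 0.33 was the largest of the 10 and missed the threshold (adjusted p = 0.0542). The age call was lost without replicate 2 or 3 of the young or replicate 1 or 2 of the old AKO-labelled libraries (adjusted p from 0.0573 to 0.0931). T cell markers ran beside it, summed over the 4 of 8 listed genes that could be tested, Cd3g, Cd2, Lck and Cd4. The sums were 1.37 to 1.54 CPM in young WT-labelled, 0.320 to 0.508 in young AKO-labelled, 2.36 to 4.32 in old WT-labelled and 0.892 to 1.76 in old AKO-labelled libraries. Cd3d, Cd3e, Cd8a and Cd5 were too low to test, with at most 14 reads in a library, and are not in these sums. The part of T cells in the Thy1 values was not tested.

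Procr encodes the endothelial protein C receptor, which presents protein C to thrombomodulin-bound thrombin and is also carried by several stem and progenitor cells (chr2:155751217-155755478). Young values were 3.96, 7.65 and 5.56 CPM under WT and 3.58, 2.42 and 2.65 under AKO, and old values were 10, 14.4 and 12.8 under WT and 8.83, 7.17 and 5.22 under AKO. All 4 pairs of groups were apart, by a small gap in young libraries. Procr rose with age by 1.11 ± 0.27 under WT (adjusted p = 0.0168) and by 1.3 ± 0.28 under AKO (adjusted p = 0.0135). The first call was lost without young WT replicate 3 or old WT replicate 2 (adjusted p = 0.0607 and 0.0535), and the second without young AKO replicate 3 or old AKO replicate 1 (adjusted p = 0.0583 and 0.0609). Its genotype difference passed in the mean over ages, at -0.90 ± 0.19 (adjusted p = 0.0140), and at neither age alone, at -0.99 ± 0.28 and -0.81 ± 0.27. Of 10 tested partners of the member proteins, 3 were lower under the AKO label in that mean, among them F2r, the thrombin receptor that activated protein C can also cleave, at -1.01 ± 0.16 (adjusted p = 0.00626). F2r was also lower in young libraries alone, at -1.21 ± 0.23 (edgeR, adjusted p = 0.0400). Of the 10 partners, 8 lay below 0 in the mean over ages and 0 were called higher. Among all 15068 tested genes, 10.3% were called lower and 615 higher. Thbd, thrombomodulin, had higher mean levels under the AKO label, at 543 ± 172 (WT) and 619 ± 102 CPM (AKO) in young libraries. In old libraries it stood at 339 ± 81.1 and 586 ± 93.7 CPM.

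Cd55, the decay-accelerating factor that breaks up complement convertases on the cell surface, passed in none of the 6 comparisons (chr1:130439026-130462744). Its values were 38.6, 17.9 and 13.9 CPM in young WT-labelled, 23.7, 16.3 and 22.3 in young AKO-labelled, 36.2, 37.6 and 27.3 in old WT-labelled and 30.6, 28.1 and 29.6 in old AKO-labelled libraries. The genotype groups overlapped at both ages, with differences of -0.18 ± 0.31 and -0.20 ± 0.31. Young WT replicate 1 was again the highest young library. Without it, the young difference was 0.38 (adjusted p = 0.283) and the rise with age under WT was 1.08, which then passed (adjusted p = 0.00444). Reads of Cd55 are shared with its duplicate Cd55b and with an antisense gene over 9.12% of its 50-base words, and Cd55b itself averaged at most 0.600 CPM in any group.

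Ly6a and Cd34 were the 2 most abundant members per length in all 4 groups, and the last member differed between groups. In old WT-labelled libraries Ly6a led at 103 ± 19.3 FPKM, followed by Cd34 at 46.1 ± 9.88, Cd55 at 14.2 ± 2.20 and Pdgfrb at 13.7 ± 2.89, of which Cd55 and Pdgfrb overlapped. Procr at 8.78 ± 1.62 and Cd248 at 8.39 ± 0.85 overlapped too. Pi16, Dpp4, Pdgfra and Thy1 followed at 4.89 ± 0.24, 4.83 ± 0.71, 4.64 ± 0.70 and 3.46 ± 0.87, each overlapping the next. In young WT-labelled libraries Pi16 at 1.04 ± 0.56 and Dpp4 at 0.869 ± 0.931 were last, and in old AKO-labelled ones Pdgfra was last at 1.57 ± 0.29.

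In profile, the members were not alike to the same degree. Cd248 and Cd34 were each other's nearest member, at a root mean square difference of 0.18 log2 units over the 12 libraries. Procr lay nearest to Cd248 at 0.23, and Thy1 nearest to Cd34 at 0.23. Pdgfra and Pdgfrb both lay nearest to Procr, at 0.44 and 0.39, and not to each other. Dpp4 lay farthest from the rest, with 0.61 to its nearest member, Pi16, and 1.51 to Pdgfrb.

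**Figure D3:**
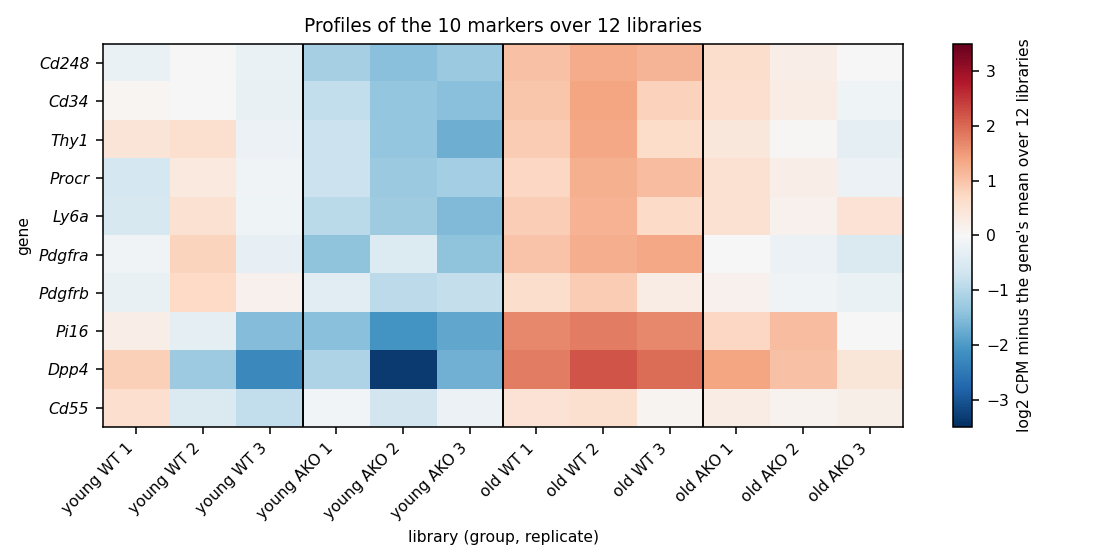
Log2 CPM of each member centred on its own mean over the 12 libraries, as a heat map with genes in rows, libraries in columns and blue for below and red for above the mean. All 10 members have their lowest group mean in the young AKO-labelled and their highest in the old WT-labelled libraries, and Dpp4 spans the widest range, from -3.36 to 2.21.

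The genes nearest to the other members in profile were a mixed group. Gas1 was nearest to Cd248 at 0.14, and Ptgs1 to Cd34 at 0.14. Mmp2, a matrix metalloprotease, was nearest to Pdgfra at 0.17, while Lama5 and the endothelial cadherin Cdh5 were nearest to Pdgfrb at 0.12 and 0.12. Sema3g and Ace were nearest to Ly6a at 0.16 and 0.16, Rian to Thy1 at 0.20, Rhoj to Procr at 0.12 and Zfp82 to Cd55 at 0.11.

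Marker lists of the other cells that such a preparation can hold were measured beside the members. Over both ages, 8 of 10 endothelial genes were lower under the AKO label, against 10.3% of all tested genes. The median of the 10 was -0.76, with Sox17 at -1.11 ± 0.18 and Pecam1 at -0.84 ± 0.18. All 10 macrophage genes were lower, with a median of -1.53 and C1qa at -1.43 ± 0.21. Of 17 matrix genes of fibroblasts, 7 were lower, with a median of -0.58 and Fbn1 at -1.24 ± 0.16 and Lum at -0.85 ± 0.12. The Lum mean came from the old libraries, at -1.61 ± 0.17 (adjusted p = 0.00540) against -0.09 ± 0.16 in young ones (adjusted p = 0.810, edgeR), and the difference between the ages did not pass (adjusted p = 0.239). Mural cell genes were lower in 3 of 10. Mesothelial genes were called lower in 0 of 11 by edgeR, with a median of -1.01 and an unadjusted p under 0.05 for 8 of 11. The share of all genes with such a p in this comparison is not given here, so the 8 cannot be weighed against it.

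In levels, the 10 endothelial genes summed to 757 to 1428 CPM in young WT-labelled and 482 to 645 in young AKO-labelled libraries, and to 1220 to 2238 and 928 to 1458 in the old ones. The macrophage genes summed to 288 to 417 and 175 to 235 in young, and to 1044 to 4227 and 354 to 496 in old libraries, with the highest value in old WT replicate 3. The 12 adipocyte genes ran the other way in old libraries, at 34626 to 45033 CPM under WT and 55529 to 58543 under AKO. Over both ages 4 of them were called higher, against 615 of all 15068 tested genes. Young adipocyte sums overlapped, at 61243 to 69377 and 52112 to 75648. The part of these cell types in the values of the members was not tested.

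Epididymal epithelium can come along with this fat pad, and some genes listed for it had reads in libraries labelled WT. Of the 7 genes on that list, 2 could be tested, Crisp1 and Akr1b7, and only these were summed. They summed to 1.19 to 21.4 CPM in the young WT-labelled and 0.0536 to 9.75 in the old WT-labelled libraries. The sum was 0 in all 6 AKO-labelled libraries, where a count of 0 allows up to 3 reads a library, or 0.0491 to 0.0587 CPM. The other genes on the list were too low to test and are not in the sums. Defb20, Lcn5, Lcn8 and Spag11a had 0 reads in every library, and Adam7 had at most 22. Whether epithelium was the source of the Crisp1 and Akr1b7 reads was not tested. B cell genes were lower under the AKO label in 2 of 5 over both ages, against 10.3% of all genes.

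**Figure D4:**
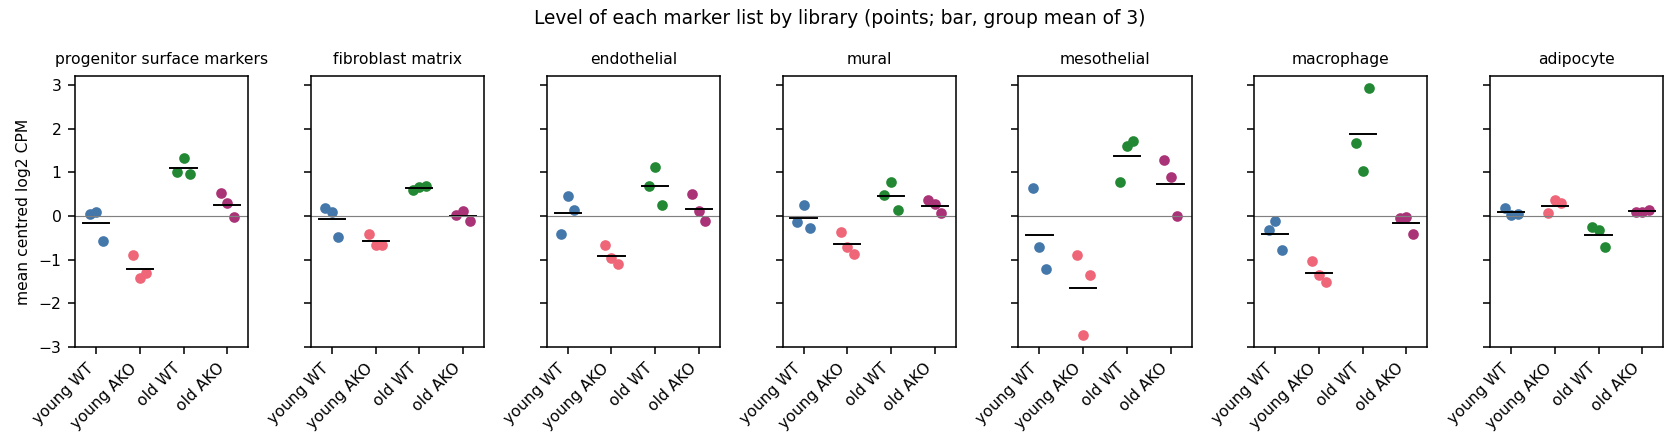
Mean over each marker list of log2 CPM centred per gene, in the 12 libraries by group (points) with the mean of 3 libraries (bar), for the progenitor surface markers and 6 other lists. The members run from -1.42 in young AKO replicate 2 to 1.32 in old WT replicate 2, and the macrophage list reaches 2.92 in old WT replicate 3.

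Relatives of the member genes were listed to see whether families moved together. Of the 24 tested, 9 were lower and 1 was higher under the AKO label over both ages. Among all 15068 tested genes, 10.3% were called lower and 615 higher. Cd93 and Clec14a, which belong to the same family as Cd248, were lower at -1.03 ± 0.18 and -0.67 ± 0.18. Thbd, of that family too but listed with the partners, had higher mean levels under the AKO label at both ages and was not called. Csf1r and Kit, kinases related to the PDGF receptors, were lower at -1.52 ± 0.28 and -0.78 ± 0.18, and Fap, the peptidase closest to Dpp4, at -0.90 ± 0.17. Ly6h was the gene called higher, at 0.53 ± 0.13, with 1.07 ± 0.18 in young (adjusted p = 0.0295) and -0.02 ± 0.18 in old libraries (adjusted p = 0.967, edgeR). Its level was low, at 2.51 ± 0.12 and 5.28 ± 1.27 CPM in young WT-labelled and AKO-labelled libraries. The difference of the genotype effect between ages was called for 0 of the 24 relatives, so an effect of age on it was not shown. With age, 10 of the 24 rose under each label, against 14.2% and 10.4% of all genes under WT and AKO. Among them were Fap at 1.45 ± 0.24 under WT and Glipr2, a CAP family protein as Pi16 is, at 1.68 ± 0.24 under AKO.

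The size of the genotype difference was not shown to depend on age for any member. Differences between the old and the young genotype effect ran from -0.19 for Pdgfra to 0.72 for Ly6a, with a median of 0.32, and adjusted p-values were 0.568 to 0.994 (edgeR). None of the members had an unadjusted p under 0.05, against 9.35% of all genes, and edgeR called 1 of all genes, or 0.00664%. DESeq2 also called 0 members, and called 57 of all genes, or 0.378%. These p-values do not show that the effects were equal.

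At each age alone, 2 members were called lower under the AKO label: Cd248 and Cd34 in young libraries, where 0.79% of all genes were called lower, and Cd248 and Pdgfra in old ones, where 5.16% were. Unadjusted p-values under 0.05 were found for 8 and 7 members, against 19.5% and 22.0% of all genes. Groups did not overlap for 7 members in young and 9 in old libraries, all with the AKO-labelled libraries lower, against 11.0% and 20.3% of all genes. In 7 members both ages showed this, against 6.39%.

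The counts at single ages depended on the libraries and tools, and the share of all genes called in either direction, 0.976% in young and 5.95% in old libraries, moved as well. The young count was 8 by DESeq2, with 9.06% of all genes called, and 0 by limma-voom, with 0.0597%. It became 0 without young WT replicate 2, young AKO replicate 3 or old AKO replicate 2, where 0.052%, 0.0326% and 0.105% of all genes were called. It was 1 without young AKO replicate 1 or old WT replicate 1 (0.286% and 0.484% of all genes). It was 4 without young WT replicate 3 or old WT replicate 3 (2.07% and 2.92%), and 5 without young WT replicate 1 (3.02%). The old count was 5 by DESeq2, with 12.5% of all genes called. It became 0 without old AKO replicate 1, 2 or 3, where the calls among all genes fell to 0.0786%, 0.0327% and 0.0261%, and 1 without old WT replicate 2 or 3 (6.22% and 2.52%). With both libraries that stood apart left out, the young and old counts were 6 and 1, against 5.6% and 3.35% of all genes. The count in the mean over ages was 8 without both, and 8 or 9 without any single library.

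Age counts were as follows. Under WT, 7 were called, against 22.9% of all genes in either direction. The count was 3 without young WT replicate 3 or old WT replicate 2 (9.85% and 17.9% of all genes) and 4 without old WT replicate 1 (17.2%). Under AKO, 7 were called, against 18.4% of all genes, and 4 without young AKO replicate 3 or old AKO replicate 1 (5.42% and 4.8%). With both libraries that stood apart left out the counts were 6 and 9, against 23.8% and 26.8% of all genes. Cd248, Cd34 and Pi16 passed in both age comparisons under every alternative run, whereas Pdgfra and Dpp4 under WT each lost their call in 11 of 23. Groups did not overlap for 8 members under WT and 9 under AKO, all higher with age, against 23.0% and 23.9% of all genes.

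The transcript estimates behind the sums were less steady than the sums. Cd248, Pi16, Thy1, Procr and Cd55 have 1 transcript each in the table. Cd34 was split between variant 2 with 56.9% of its reads over all libraries and variant 1 with 43.1%. For Pdgfra, variant 1 held 81.5% of the reads over all libraries but 0 in old AKO replicate 2, where variant 2 held 633, against 1 and 2 in the other old AKO-labelled libraries. Pdgfrb variants 1 and 2 differ in length by 3 bases, 5413 against 5410, and held 37.0% and 63.0%. Of the Ly6a reads, variant 5 held 66.0%. Tested without summing, the Pdgfra decrease in old libraries was no longer called, with variant 1 at -1.87 ± 1.24 (adjusted p = 0.551) and the smallest adjusted p over its variants at 0.370 (edgeR).

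**Figure D5:**
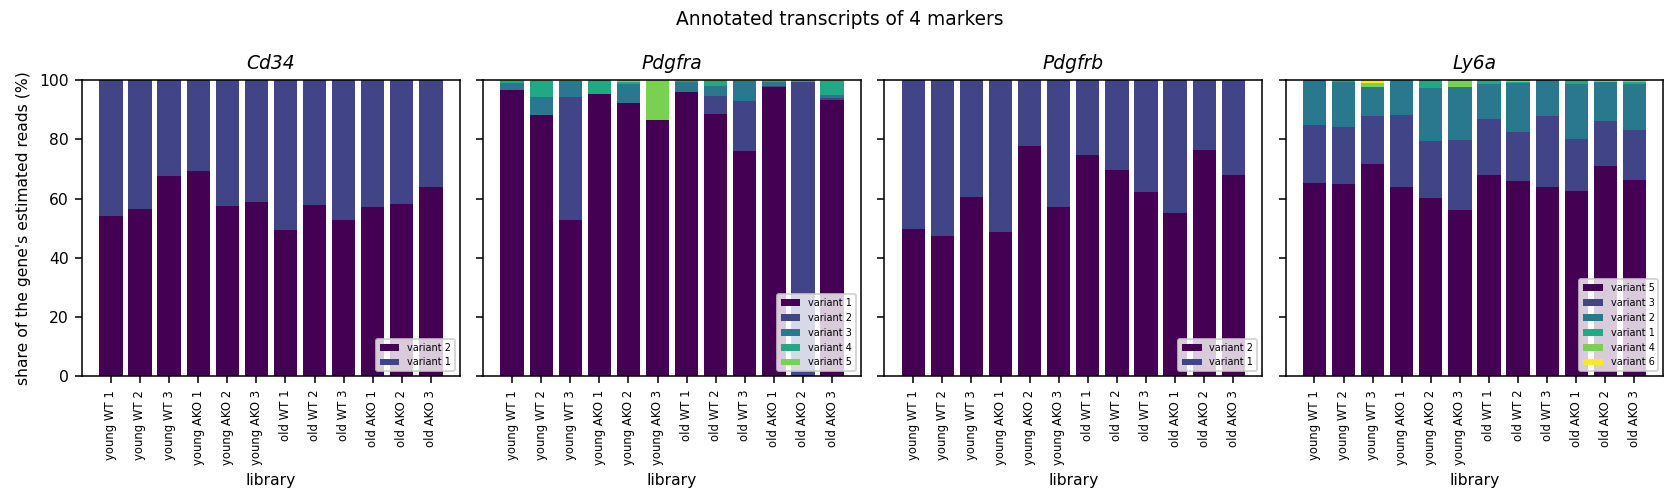
Share of each member's reads, in percent, assigned to its transcript variants in the 12 libraries, for Cd34, Pdgfra, Pdgfrb and Ly6a. Pdgfra variant 1 is at 0 in old AKO replicate 2, where variant 2 holds 633 reads, and the other bars of Pdgfra are mostly variant 1.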

How the data were processed

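RNA-seq libraries of epididymal primary adipocytes (4 groups of 3) were poly-A selected and prepared with the TruSeq mRNA kit, per the labels' protocols. HISAT2 2.1.0, Bowtie2, StringTie 1.3.4d and build mm10 are named in the submitters' processing notes, without roles. The authors deposited 1 table of 36779 transcript lines with estimated counts of reads and FPKM values per library, listed per transcript. Whether strand was used in counting is not given in the sources used here. The deposited estimated counts were whole numbers, so none was rounded. They were summed per gene symbol, as was the deposited FPKM.

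Counts of 15068 genes kept by filterByExpr were fitted with edgeR 4.0.16 in R 4.3.3 (TMM factors, quasi-likelihood test, all 12 libraries, 1 mean per group, 8 residual degrees of freedom). P-values were Benjamini-Hochberg adjusted over all 15068 genes, and called means an adjusted p under 0.05, two-sided. The common biological coefficient of variation was 24.7%. DESeq2 1.42.0, limma 3.58.1 and the other alternatives are given in the closing section. The script was tested on simulated counts. Precision rests on 45935795 to 61125366 reads per library and 3 libraries per group.

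The members and all gene lists were chosen with earlier results of these data known. Named genes are all members, genes among the 3 with the smallest p of each list, and the 3 genes nearest in profile, with Crtc2 as the label check. Outside that rule, Ly6i, Cd55b, Kit, Clec14a, Thbd, Cd3d, Cd3e, Cd8a and Cd5 were named after their values were seen. So were Apoe, Defb20, Lcn5, Lcn8, Adam7 and Spag11a. Shared 50-base words were counted over GENCODE transcripts of GRCm38, and coordinates are 1-based as deposited. Ly6a, Cd55 and, through antisense exons, Cd34, Pdgfra, Dpp4 and Pi16 can share reads with other genes.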

Additional observations from a re-analysis of the deposited data

How the results depend on the processing

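The replicate numbers did not pair the libraries: of 18 pairs of same-numbered libraries, 0 had deviations correlated above 0.1 (from -0.214 to 0.0902), and 1 of 12 libraries correlated best with its own number. With a replicate block, 3, 0, 7, 8, 8 and 0 members were called in the young genotype, old genotype, WT age, AKO age, mean genotype and genotype-by-age comparisons, against 2, 2, 7, 7, 8 and 0 without it. In the young and old genotype comparisons the block left 0.358% and 0.0796% of all genes called, against 0.976% and 5.95%. The following counts carry in parentheses the share of all genes called under the same setting. The young genotype count was 8 by DESeq2 (9.06%), 0 by limma-voom (0.0597%), 4 with at least 1 CPM in 3 libraries (1.62%), 0 on log2(FPKM + 1) (0.113%), 0 with only the groups compared (0.0284%) and 6 without old WT replicate 3 and young WT replicate 1 (5.6%). The old genotype count was 5 by DESeq2 (12.5%), 5 on log2(FPKM + 1) (7.56%), 1 with only the groups compared (1.38%) and 1 without those 2 libraries (3.35%). The WT age count was 3 with only the groups compared (7.2%). With transcripts not summed, where no share of genes was computed, these 3 counts were 1, 0 and 4. Leaving out single libraries gave 0 to 5, 0 to 3, 3 to 7, 4 to 7, 8 to 9 and 0 to 0 in the same order. The cause of these shifts was not tested.

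Directions of the genotype and age differences held in all alternatives except Cd55, whose difference was 0.37 in young and 0.027 in the mean over ages without both libraries, and ran from -0.45 to 0.38 and from -0.32 to 0.093 over single libraries. With transcripts not summed, each gene took the direction of its transcript with the most reads. Some other variants turned, among them Pdgfrb variant 1, at -0.28 ± 0.46 in the WT age comparison. Signs of the difference of genotype effects between ages turned more often: for Cd55 to 0.0060 with RLE factors, 0.0063 by DESeq2 and 0.051 with the CPM filter; on log2(FPKM + 1) to -0.41 for Dpp4, -0.34 for Pi16 and -0.027 for Procr; on log2(FPKM + 0.1) to -0.10 for Dpp4; with transcripts not summed to -0.0078 for Pdgfrb; and without both libraries to 0.035 for Pdgfra, -0.92 for Dpp4 and -0.034 for Pi16. Over single libraries that difference ran from -0.60 to 0.19 for Pdgfra, -0.034 to 0.49 for Pdgfrb, -0.92 to 0.99 for Dpp4, -0.032 to 0.75 for Pi16, -0.083 to 0.43 for Procr and -0.58 to 0.25 for Cd55. On the FPKM scales the median of all genes moved to 0.11 and 0.17 in the WT age comparison and, with 0.1 added, to 0.14 in the AKO age comparison, and age differences there stand relative to that shift. Depth limits mainly Pi16, Dpp4 and Thy1 in young AKO-labelled libraries, where the lowest counts were 35, 27 and 46 reads.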
